A study of Mus musculus with 9 samples.

Results

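The enzymes of upper glycolysis, the hexokinases, glucose-6-phosphate isomerase, the phosphofructokinases and the enzymes that set the level of their activator, were followed in mouse primary macrophages under 3 oxygen conditions. The members were chosen by name: Hk1, Hk2, Hk3, Gpi1, Pfkl, Pfkm, Pfkp, Pfkfb3, Pfkfb4 and Tigar. All 10 were found among the 34866 genes of the deposited tables, and all 10 passed the filter on low values (a mean of at least 1 TPM) in each comparison. TPM, the unit of these tables, scales reads by gene length and by the total of the library, so levels can be compared between genes.

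All cells were grown in alpha-MEM with 10% fetal bovine serum and 10% L929-conditioned medium, which comes from a mouse fibroblast line and supports macrophage growth. Standard oxygen lasted 7 days, acute hypoxia was standard oxygen followed by 3 hours at 1% oxygen, and chronic hypoxia was 7 days at 1% oxygen. Each condition had 3 samples, the labels name no genetic alteration, and the strain, age and tissue of origin of the cells are not given in the sources used here. Whether the 3 samples of a group came from separate animals is not stated either. The p-values therefore weigh a difference against the spread of these samples, whatever their origin.

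Samples of different groups share digits in their descriptions, called here code X, Y and Z, with 1 library of each code in every group. What the digits stand for is not stated. Across genes, libraries of the same code deviated from their group means together, and the 3 libraries of code Z stood apart from the others. They lay above both other libraries of their group in every group for 6 of the 10 members (Hk1, Hk2, Gpi1, Pfkl, Pfkp and Tigar), against 31.4% of 11065 genes with a mean of at least 1 TPM. Tests are therefore given from a fit that ignores the code (unblocked), from one that compares libraries within codes (blocked), and, where a call differs, without the libraries of code Z. In the blocked fit a difference is weighed against the spread that remains once the code is taken out. A second scaling of the libraries by the median of gene ratios is called rescaled. Differences are on the log2(TPM + 1) scale, standard errors are those of the unblocked fit, and a gene is called at an adjusted p under 0.05. Values of a group are listed below in the order X, Y, Z. Replicate numbers are those of the sample titles, and replicate 1 is code X in every group. In standard oxygen replicate 2 is code Z and replicate 3 is code Y. In both hypoxic groups replicate 2 is code Y and replicate 3 is code Z. The macrophage markers (8 of 8 listed genes at 1 TPM or more in every group) summed to between 56613 and 74829 TPM per library, most of it Lyz2 (means of 62868 TPM in standard oxygen, 63092 in acute and 61560.5 in chronic hypoxia). In chronic hypoxia other macrophage markers had higher or lower means than in standard oxygen. The mean of Csf1r was 699 TPM against 470 in standard oxygen and that of Itgam 760 against 535. Both were higher without overlap of the libraries, as were 24.2% of all genes tested. Cd14 was at 758 against 1070, lower without overlap, as were 5.39% of all genes tested. Fcgr1 was at 30.2 against 40.9 and Adgre1 at 413 against 542, with libraries that overlapped. Of 8 neutrophil markers, S100a8 carried nearly the whole sum, which ran from 895 to 1595 TPM in standard oxygen and from 937 to 1909 in acute hypoxia, but from 260 to 584 in chronic hypoxia. S100a9, a defining neutrophil marker, was near 0 throughout. Its highest standard library held 0.231 TPM, and all libraries of both hypoxic groups were listed at 0. Camp was the only other neutrophil marker whose group average passed 1 TPM, and only in chronic hypoxia (1.82, against 0.832 for standard and 0.709 for acute libraries). Its chronic libraries (1.55 to 2.03 TPM) overlapped the standard ones (0.133 to 1.65 TPM). No fibroblast, T cell, B cell, dendritic cell, mast cell or erythroid marker had a mean of 1 TPM in any group, and Cdh1 was the only epithelial marker that did. The part of these marker differences in the results was not tested.

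Glycolysis breaks glucose down to pyruvate and yields ATP without oxygen. Hexokinases trap glucose in the cell as glucose 6-phosphate, the isomerase turns it into fructose 6-phosphate, and phosphofructokinase commits it to the pathway. Phosphofructokinase is activated by fructose 2,6-bisphosphate, which the PFKFB enzymes make and break down and which TIGAR removes. Hypoxia-inducible factors (HIF) induce many glycolytic genes in low oxygen by binding hypoxia response elements, and activated macrophages are known for their reliance on glycolysis.

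**Figure D1:**
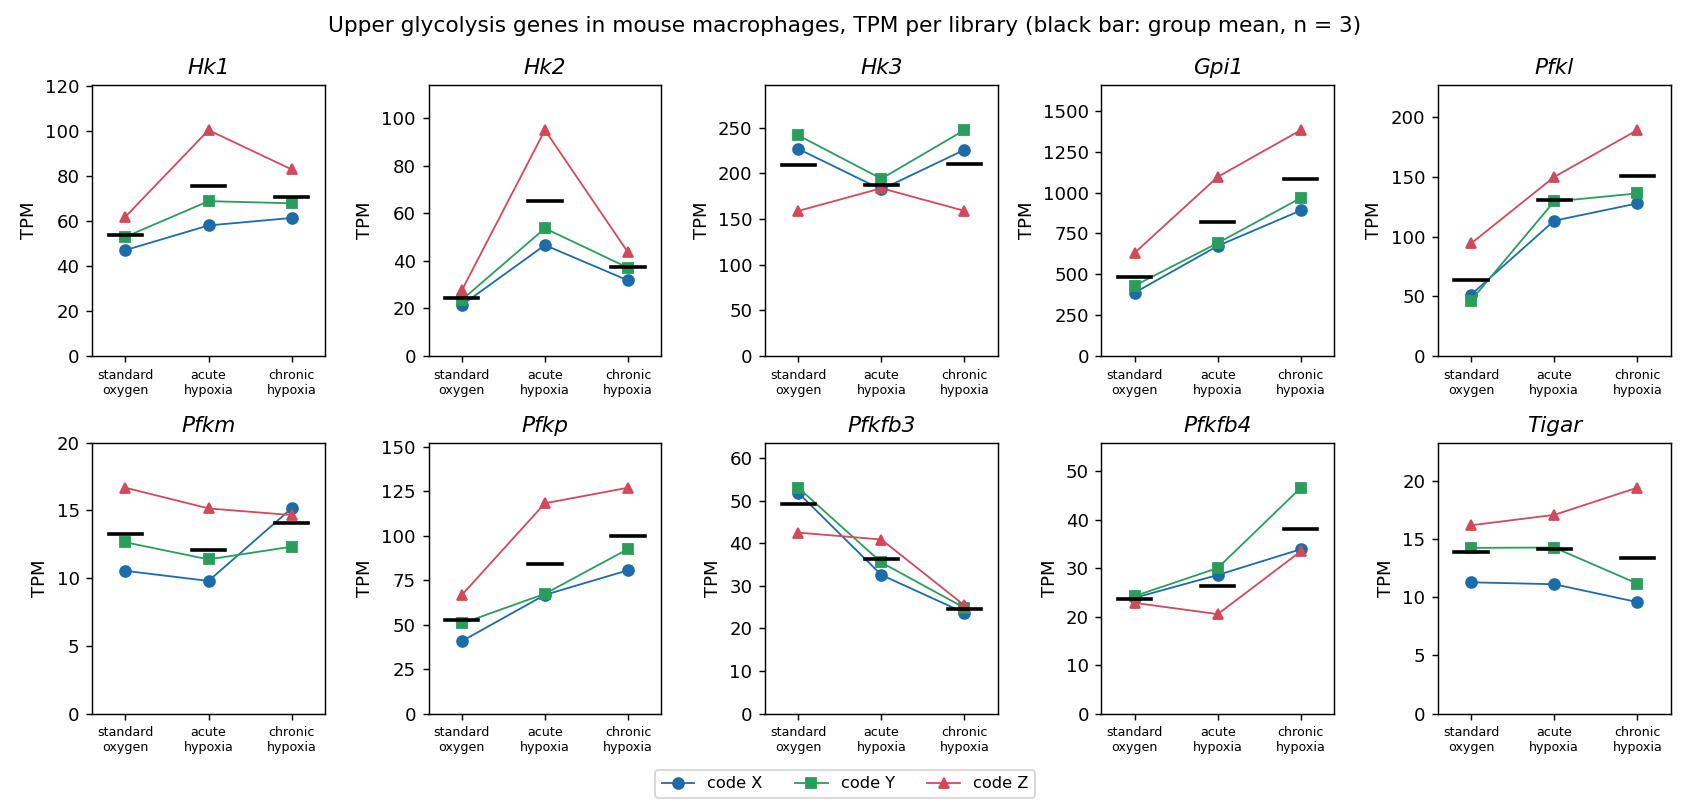
TPM of the 10 members in each library (points, shaped by sample code, on a linear axis for each gene) by oxygen group. Lines join libraries of the same code, and black bars are group means (n = 3). Hk2 was highest in acute hypoxia (mean 65.0 TPM), Gpi1 and Pfkl in chronic hypoxia (means 1081 and 151 TPM), and Pfkfb3 had means of 49.1, 36.3 and 24.6 TPM from standard to chronic.

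Among the hexokinases, Hk2 (chr6:82725025-82774454 in GRCm38), the inducible enzyme that can bind mitochondria, was at 21.4, 23.5 and 27.6 TPM in standard oxygen, at 46.6, 53.6 and 94.9 TPM in acute hypoxia, and at 31.7, 37.0 and 43.5 TPM in chronic hypoxia. The 3 groups did not overlap, and acute hypoxia was the highest. In bulk libraries such as these, fewer cells of a type and less RNA per cell cannot be told apart. The acute mean of 65.0 TPM ± 26.1 was 2.69 times the standard mean of 24.2 TPM ± 3.14, and the chronic mean, 37.4 TPM ± 5.90, was 1.55 times the standard one (SD, n = 3). Within acute hypoxia the library of code Z stood highest, at 1.89 times the mean of the other two, against 1.23 times in standard oxygen and 1.27 times in chronic hypoxia. On the log2(TPM + 1) scale Hk2 was higher in acute hypoxia than in standard oxygen by 1.33 (SE 0.27; limma adjusted p = 0.223 unblocked, 0.0482 blocked and 0.0654 blocked and rescaled). Without the libraries of code Z the difference was 1.12 (limma adjusted p = 0.0160). In chronic hypoxia the difference from standard oxygen was 0.61 (SE 0.15; limma adjusted p = 0.0934 unblocked, 0.0134 blocked). Chronic minus acute hypoxia was -0.72 (SE 0.27; limma adjusted p = 0.210 unblocked, 0.0297 blocked), and -0.42 unblocked without acute replicate 3.

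The Hk2 promoter is shown because its gene had the largest difference of the members after 3 hours over all libraries (without those of code Z, Pfkl had 1.29 and Hk2 1.12). The window runs from 250 bases before to 50 after the RefSeq start (GRCm38.p6, chr6:82774405-82774704, minus strand, printed 5′ to 3′ along the gene). Capitals mark the cores of hypoxia response elements, ACGTG and GCGTG, searched on both strands, so that CACGT and CACGC mark a core on the opposite strand, and the palindrome CACGTG counts on both.
Hk2: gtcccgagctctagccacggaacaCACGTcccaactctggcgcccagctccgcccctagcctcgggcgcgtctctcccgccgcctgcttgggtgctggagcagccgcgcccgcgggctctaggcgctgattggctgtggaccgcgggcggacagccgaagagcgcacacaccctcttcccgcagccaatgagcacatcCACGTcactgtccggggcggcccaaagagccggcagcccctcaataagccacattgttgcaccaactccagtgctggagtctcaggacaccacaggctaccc
It held 2 cores, both ACGTG on the opposite strand, and the nearer begins at position -52 from the start. Of 32851 RefSeq windows of the same length, 19.6% hold ACGTG, 32.4% GCGTG and 43.8% either, so a match is a description of the letters and not a bound site.

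Hk1 (chr10:62268855-62379908), the broadly expressed hexokinase, was at 47.0, 52.9 and 61.8 TPM in standard oxygen, at 58.0, 68.8 and 100.3 TPM in acute hypoxia, and at 61.3, 67.8 and 82.9 TPM in chronic hypoxia. Its groups overlapped in each comparison, and each code had more Hk1 in both hypoxic groups than in standard oxygen. The difference in chronic hypoxia was 0.38 (SE 0.15; limma adjusted p = 0.209 unblocked, 0.0244 blocked), and rescaled it was 0.20 (limma adjusted p = 0.112 blocked). In acute hypoxia it was 0.45 (SE 0.21; limma adjusted p = 0.779 unblocked, 0.160 blocked), and 0.23 without acute replicate 3. Chronic minus acute was -0.07 (SE 0.22; limma adjusted p = 0.887 unblocked, 0.620 blocked).

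Hk3 (chr13:55005985-55021385), the hexokinase typical of myeloid cells, was the most abundant of the 3, at 227, 242 and 159 TPM in standard oxygen, at 182, 194 and 184 TPM in acute hypoxia, and at 226, 248 and 159 TPM in chronic hypoxia. Its library of code Z was the lowest in standard oxygen and in chronic hypoxia, the reverse of Hk1 and Hk2. No comparison of Hk3 passed the test, unblocked or blocked (differences of -0.14, 0.01 and 0.15 for acute against standard, chronic against standard and chronic against acute, SE 0.17 to 0.22).

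As shares of the summed hexokinase TPM within a library, a measure in which the scaling of the library cancels, Hk3 made up 72.3% ± 7.18 under standard oxygen, 57.8% ± 8.14 after acute and 65.6% ± 8.56 after chronic hypoxia. Hk2 held 8.58% ± 2.19, 19.4% ± 4.90 and 11.9% ± 2.91, and Hk1 19.1% ± 5.0, 22.8% ± 3.27 and 22.5% ± 5.66 (SD, n = 3). The Hk2 share in acute hypoxia (16.2% to 25.0%) lay above that of standard oxygen (7.24% to 11.1%) and of chronic hypoxia (9.94% to 15.2%), without overlap. The difference of 10.8 percentage points between acute hypoxia and standard oxygen had an exact two-sided permutation p of 0.1, the smallest that 3 against 3 samples allow, as did the -7.50 points between chronic and acute hypoxia (Benjamini-Hochberg adjusted p = 0.263 over 21 such tests of shares and ratios). The 3.32 points between chronic hypoxia and standard oxygen had an exact permutation p of 0.3 (adjusted p = 0.42). Compared within codes, the Hk2 share was higher in chronic hypoxia in 3 of 3 codes. An exact permutation of signs within codes gave an unadjusted p of 0.25, the smallest possible. Without acute replicate 3 the chronic minus acute difference was -4.68 points (exact permutation p = 0.2), and without chronic replicate 3 the chronic minus standard difference was 1.65 points (exact permutation p = 0.4). The Hk3 share in acute hypoxia (48.5% to 63.6%) lay below that of standard oxygen (64.0% to 76.8%) by a narrow margin (exact permutation p = 0.1, adjusted p = 0.263). Summed hexokinase TPM was 287 ± 35.6, 328 ± 47.0 and 319 ± 33.5 (SD, n = 3), with ranges that overlapped.

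**Figure D2:**
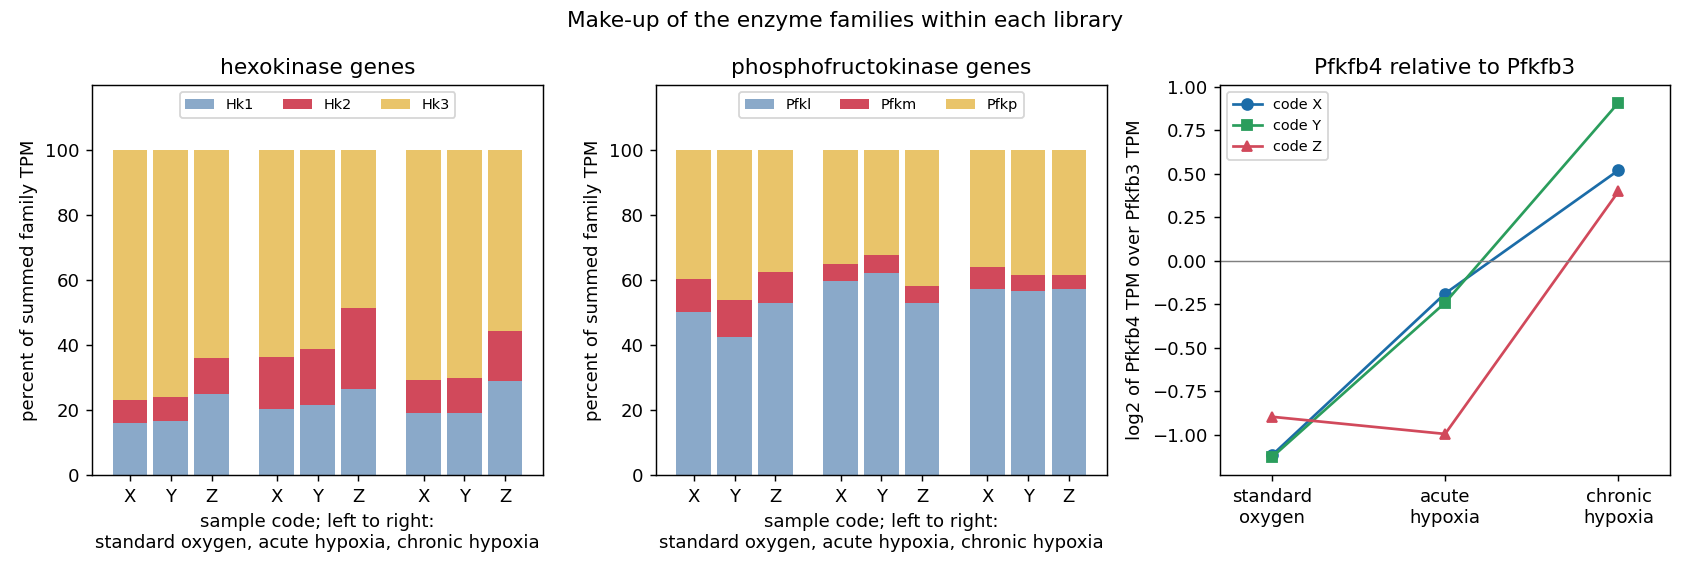
Percent of the summed hexokinase TPM (Hk1, Hk2, Hk3) and of the summed phosphofructokinase TPM (Pfkl, Pfkm, Pfkp) held by each gene in every library (stacked bars), and the log2 ratio of Pfkfb4 to Pfkfb3 TPM in every library (points, lines join a code). The Hk2 share reached 16.2% to 25.0% in acute hypoxia, and the Pfkm share was at most 6.78% in both hypoxic groups against at least 9.39% in standard oxygen, while the log2 ratio was above 0 in the 3 chronic libraries alone.

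Gpi1 (chr7:34201330-34230336), the isomerase between the 2 kinase steps, had the highest level of the members in every group, at 388, 430.4 and 631 TPM in standard oxygen, at 674, 692 and 1097 TPM in acute hypoxia and at 891, 968 and 1384 TPM in chronic hypoxia. The lowest library of acute hypoxia lay above the highest of standard oxygen, and each code had more in chronic than in acute hypoxia. The means were 483 ± 130.2, 821 ± 239 and 1081 ± 265 TPM (SD, n = 3), 1.70 times and 2.24 times the standard level in acute and chronic hypoxia. The acute difference was 0.76 (SE 0.26; limma adjusted p = 0.567 unblocked, 0.0157 blocked and 0.0195 blocked and rescaled). The chronic difference was 1.17 (SE 0.24; limma adjusted p = 0.0626 unblocked, 0.00567 blocked). Chronic minus acute was 0.41 (SE 0.25; limma adjusted p = 0.403 unblocked, 0.0259 blocked and 0.0894 blocked and rescaled), with unblocked values of 0.22 without chronic replicate 3 and 0.64 without acute replicate 3. A stretch of Gpi1 is near-identical to Gm1840 (4.90% of its 75-base stretches occur there), so a small part of its reads could be split between the 2 genes. Its RefSeq promoter window held neither core.

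Of the phosphofructokinases, Pfkl (chr10:77986947-78010083), the liver-type subunit and the most abundant of the 3 by group mean, was at 51.3, 46.4 and 94.2 TPM in standard oxygen, at 113, 129 and 150.0 TPM in acute hypoxia, and at 128, 136 and 189 TPM in chronic hypoxia. Every hypoxic library lay above every standard library, and the library of code Z was the highest in each group, at 1.93 times the mean of the other two in standard oxygen. The means were 64.0 ± 26.3, 131 ± 18.4 and 151 ± 33.3 TPM (SD, n = 3), 2.05 and 2.36 times the standard level in acute and chronic hypoxia. The acute difference was 1.08 (SE 0.27; limma adjusted p = 0.329 unblocked, 0.0813 blocked); without the libraries of code Z it was 1.29 (adjusted p = 0.0105), and without standard replicate 2 alone 1.40 (adjusted p = 0.0475). The chronic difference was 1.28 (SE 0.29; limma adjusted p = 0.0757 unblocked, 0.00926 blocked). Chronic minus acute was 0.19 (SE 0.18; limma adjusted p = 0.587 unblocked, 0.148 blocked).

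Pfkp (chr13:6579768-6648777), the platelet-type subunit, was at 40.7, 50.6 and 66.6 TPM in standard oxygen, at 66.7, 67.3 and 118 TPM in acute hypoxia, and at 80.5, 92.4 and 127 TPM in chronic hypoxia. The acute libraries lay above the standard ones by a narrow margin, 66.7 against 66.6 TPM, and the chronic libraries were all above the standard ones. The chronic difference was 0.91 (SE 0.23; limma adjusted p = 0.0932 unblocked, 0.00689 blocked), and the acute difference was 0.64 (SE 0.27; limma adjusted p = 0.712 unblocked, 0.0880 blocked). Without acute replicate 3 the acute difference was 0.37. Chronic minus acute was 0.27 (SE 0.27; limma adjusted p = 0.604 unblocked, 0.0952 blocked), and between 0.090 and 0.54 when 1 library was left out. Of the exonic length of Pfkp, 5.58% overlaps Pitrm1 on the opposite strand, and whether counting used strand is not stated. Pitrm1 reached at most 25.7 TPM in a library.

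Pfkm (chr15:98092589-98132451), the muscle-type subunit, was the lowest of the 3, between 9.79 and 16.7 TPM over all 9 libraries, and its groups overlapped in every comparison. Its differences were -0.12 (acute against standard), 0.09 (chronic against standard) and 0.21 (chronic against acute), none of which passed the test, unblocked or blocked (SE 0.18 to 0.21). Of the summed phosphofructokinase TPM, Pfkm made up 10.4% ± 1.07 under standard oxygen, 5.32% ± 0.156 after acute and 5.44% ± 1.21 after chronic hypoxia. Pfkl held 48.5% ± 5.54, 58.3% ± 4.79 and 57.0% ± 0.394, and Pfkp 41.1% ± 4.48, 36.4% ± 4.81 and 37.6% ± 1.35 (SD, n = 3). The Pfkm shares of the hypoxic groups did not overlap those of standard oxygen (differences of -5.07 and -4.96 percentage points, exact permutation p = 0.1 each, adjusted p = 0.263). The Pfkl share in chronic hypoxia (56.5% to 57.2%) lay above that of standard oxygen (42.3% to 53.1%) without overlap (exact permutation p = 0.1, adjusted p = 0.263). In acute hypoxia the Pfkl share overlapped that of standard oxygen (exact permutation p = 0.2, adjusted p = 0.42). The Pfkp share overlapped between groups (exact permutation p = 0.3, 0.3 and 0.7, adjusted p = 0.42, 0.42 and 0.774). Summed phosphofructokinase TPM was 130 ± 41.4 in the standard (102 to 178), 227 ± 49.5 in the acute (190 to 283) and 265 ± 57.6 in the chronic libraries (223 to 331; SD, n = 3), so that the summed level of the hypoxic libraries lay above the standard range.

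The promoter windows of Pfkl (chr10:78009758-78010057, minus strand) and Pfkp (chr13:6648722-6649021, minus strand) are shown because both genes lay higher in every hypoxic library than in any standard one, while the groups of Pfkm overlapped. Capitals again mark the 2 cores.
Pfkl: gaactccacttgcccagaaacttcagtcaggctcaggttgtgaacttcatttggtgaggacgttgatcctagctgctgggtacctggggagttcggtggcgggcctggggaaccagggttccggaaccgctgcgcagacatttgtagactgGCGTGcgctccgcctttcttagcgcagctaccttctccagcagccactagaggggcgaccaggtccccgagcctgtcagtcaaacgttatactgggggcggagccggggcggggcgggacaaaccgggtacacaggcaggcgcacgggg
Pfkp: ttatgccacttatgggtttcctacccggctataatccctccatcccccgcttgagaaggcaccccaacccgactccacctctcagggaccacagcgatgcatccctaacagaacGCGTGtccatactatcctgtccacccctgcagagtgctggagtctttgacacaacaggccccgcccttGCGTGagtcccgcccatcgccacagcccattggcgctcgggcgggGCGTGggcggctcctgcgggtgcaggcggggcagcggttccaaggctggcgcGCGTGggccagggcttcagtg
Pfkl held 1 GCGTG and Pfkp 4, among them 1 downstream of the start. Of the 4 windows of Pfkm, 2 of which overlap and share a core, 3 held a core too.

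Among the regulators of phosphofructokinase, PFKFB3 and PFKFB4 carry a kinase and a phosphatase activity in the same protein; PFKFB3 has the highest kinase-to-phosphatase ratio of the family. Pfkfb3 (chr2:11471433-11554077) was at 51.9, 53.1 and 42.5 TPM in standard oxygen, at 32.6, 35.5 and 40.9 TPM in acute hypoxia, and at 23.7, 24.8 and 25.4 TPM in chronic hypoxia. The 3 groups did not overlap, with means of 49.1 ± 5.78, 36.3 ± 4.22 and 24.6 ± 0.896 TPM (SD, n = 3). In chronic hypoxia the difference from standard oxygen was -0.96 (SE 0.12; limma adjusted p = 0.0203 unblocked, 0.0122 blocked). That call was lost without standard replicate 1 or 3 or chronic replicate 1 or 2, the libraries of codes X and Y (limma adjusted p between 0.0976 and 0.128). Chronic minus acute was -0.54 (SE 0.11; limma adjusted p = 0.0810 unblocked, 0.0207 blocked). In acute hypoxia the difference from standard oxygen was -0.43 (SE 0.13; limma adjusted p = 0.506 unblocked, 0.287 blocked), and without the libraries of code Z it was -0.61 (limma adjusted p = 0.0302).

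Pfkfb4 (chr9:108991778-109032228) differed in the opposite direction. It was at 23.9, 24.2 and 22.8 TPM in standard oxygen, at 28.6, 30.0 and 20.5 TPM in acute hypoxia, and at 33.9, 46.6 and 33.5 TPM in chronic hypoxia. Every chronic library lay above every standard and acute library, while the acute library of code Z was the lowest of all 9. The chronic difference from standard oxygen was 0.65 (SE 0.15; limma adjusted p = 0.0758 unblocked, 0.0254 blocked and 0.0585 blocked and rescaled). Chronic minus acute was 0.51 (SE 0.19; limma adjusted p = 0.212 unblocked, 0.0410 blocked and 0.102 blocked and rescaled). The acute difference was 0.13 (SE 0.15; limma adjusted p = 0.9997 unblocked, 0.652 blocked), between 0.034 without acute replicate 2 and 0.30 without acute replicate 3.

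Within each library the ratio of Pfkfb4 to Pfkfb3 was 0.460, 0.457 and 0.537 in standard oxygen, 0.878, 0.846 and 0.502 in acute hypoxia, and 1.43, 1.88 and 1.32 in chronic hypoxia. Pfkfb3 was thus the more abundant of the pair in all 6 libraries outside chronic hypoxia, and Pfkfb4 in all 3 within it. The log2 ratio in chronic hypoxia exceeded that of standard oxygen by 1.66 and that of acute hypoxia by 1.08 (exact permutation p = 0.1 each, the smallest possible; adjusted p = 0.263), and it was higher in 3 of 3 codes in both. In acute hypoxia it was higher than in standard oxygen by 0.57 in the mean, but in 2 of 3 codes (exact permutation p = 0.2, adjusted p = 0.42), with code Z as the exception (0.91 without the libraries of that code).

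The windows of Pfkfb3, which has 2 RefSeq starts (chr2:11553880-11554179 and chr2:11502041-11502340, minus strand), and of Pfkfb4 (chr9:108991652-108991951, plus strand) are shown because the 2 genes differed from standard oxygen in opposite directions in chronic hypoxia.
Pfkfb3 first start: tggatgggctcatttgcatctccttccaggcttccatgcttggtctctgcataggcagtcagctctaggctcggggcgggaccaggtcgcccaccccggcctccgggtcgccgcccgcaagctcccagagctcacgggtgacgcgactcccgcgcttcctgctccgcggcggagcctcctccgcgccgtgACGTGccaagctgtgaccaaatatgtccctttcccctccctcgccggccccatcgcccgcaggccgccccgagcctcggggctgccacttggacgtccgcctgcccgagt
Pfkfb3 second start: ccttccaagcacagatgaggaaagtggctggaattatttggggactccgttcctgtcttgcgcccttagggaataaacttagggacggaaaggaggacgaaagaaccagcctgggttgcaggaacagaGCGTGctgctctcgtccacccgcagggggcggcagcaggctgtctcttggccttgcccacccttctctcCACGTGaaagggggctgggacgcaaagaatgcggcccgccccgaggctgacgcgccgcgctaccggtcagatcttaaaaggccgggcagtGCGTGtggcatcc
Pfkfb4: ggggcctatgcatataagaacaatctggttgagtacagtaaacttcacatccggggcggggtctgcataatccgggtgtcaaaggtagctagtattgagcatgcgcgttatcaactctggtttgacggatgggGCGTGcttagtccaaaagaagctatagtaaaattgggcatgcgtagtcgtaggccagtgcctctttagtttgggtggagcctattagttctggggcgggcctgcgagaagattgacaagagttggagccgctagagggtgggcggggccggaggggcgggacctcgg
The Pfkfb3 windows held 1 and 4 matches, with the palindrome counted on both strands in the second, and the Pfkfb4 window held 1. Over all members, 11 of 15 windows and 8 of 10 genes held a core, the exceptions being Gpi1 and Tigar. Of all RefSeq windows, 43.8% held either core. No such share was computed per gene, and a gene with several windows has more chances of a match.

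**Figure D3:**
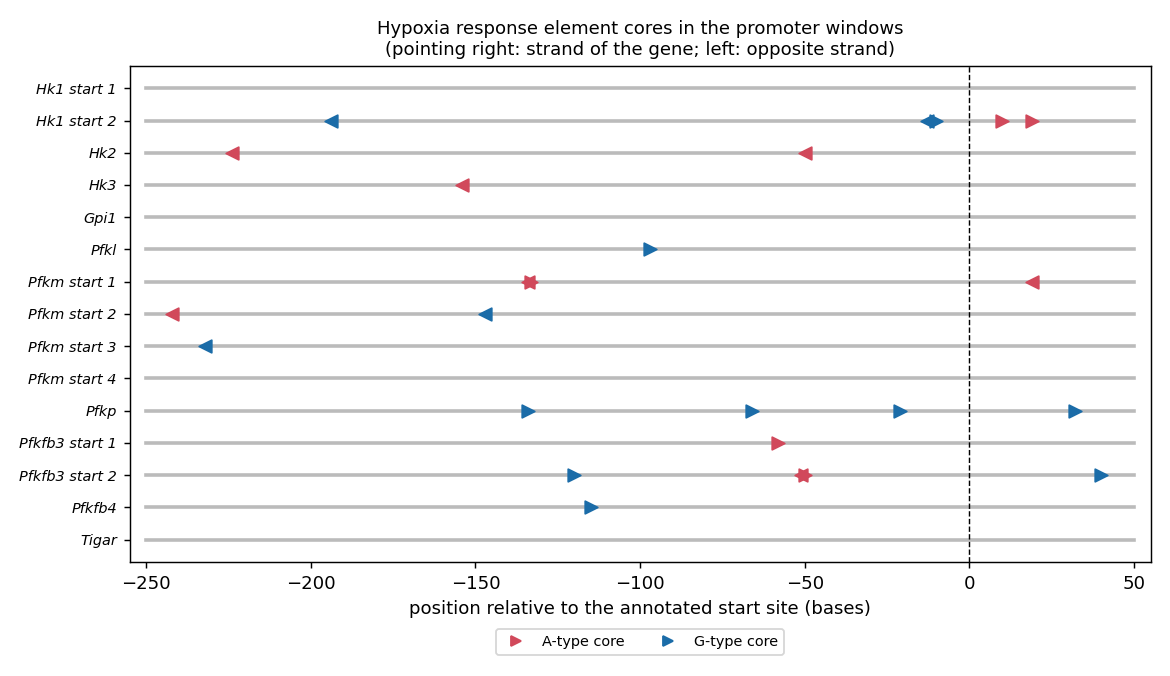
Position of each core of a hypoxia response element, in bases from the RefSeq start (a vertical line marks the start, negative values lie upstream), in the 15 promoter windows of the 10 members. Red symbols are ACGTG (A-type), blue symbols GCGTG (G-type), and the side a symbol points to gives the strand. Pfkp holds 4 cores and Pfkl and Pfkfb4 hold 1 each; overlapping symbols in Pfkm and in the second window of Pfkfb3 are a palindrome drawn on both strands.

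Tigar (chr6:127085116-127109557), a fructose bisphosphatase that lowers fructose 2,6-bisphosphate, was between 9.59 and 19.4 TPM, and its groups overlapped in every comparison. The library of code Z was its highest in each group (16.2, 17.1 and 19.4 TPM). Its differences of 0.02, -0.10 and -0.12 (acute against standard, chronic against standard, chronic against acute; SE 0.19 to 0.28) did not pass the test, unblocked or blocked.

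**Figure D4:**
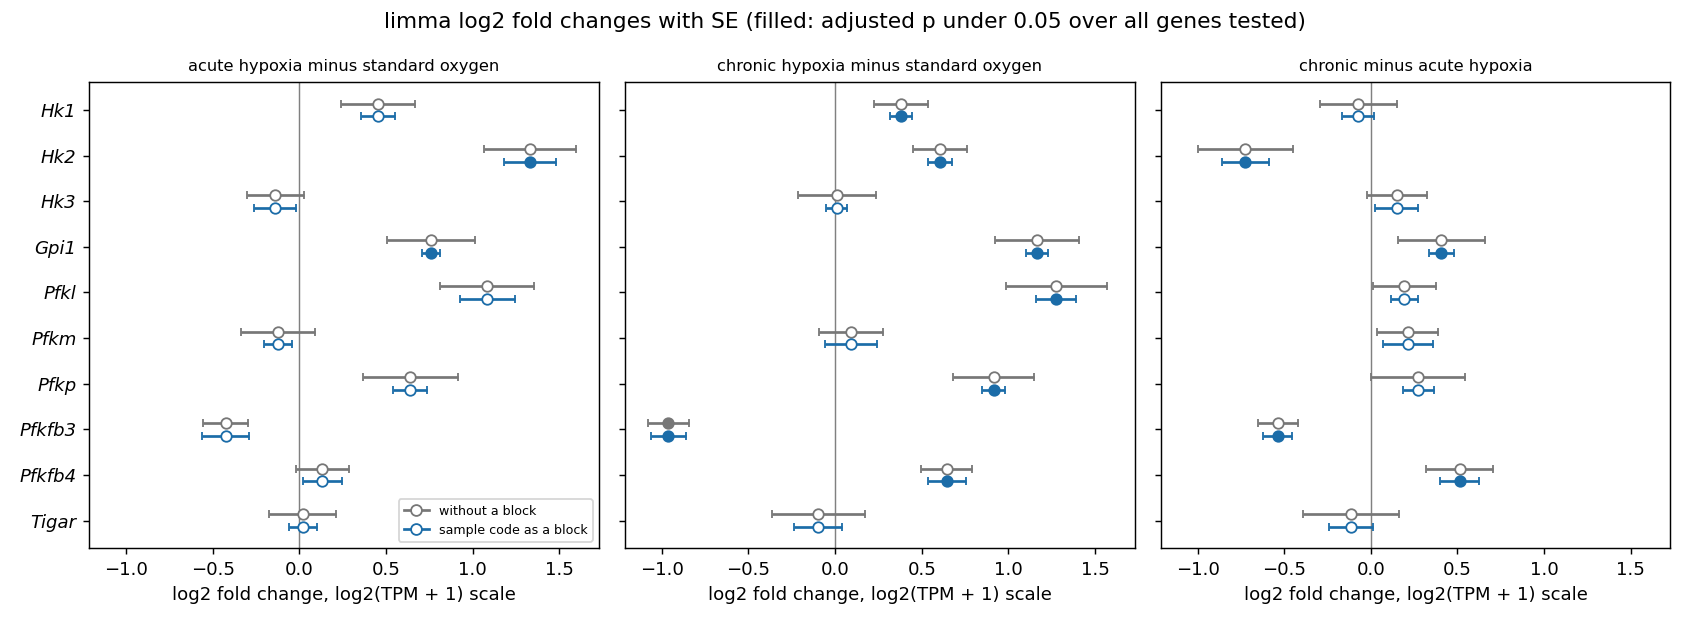
Differences in log2(TPM + 1) for the 10 members in the 3 comparisons, with the standard error (bars) from limma unblocked (grey) and blocked by code (blue). Filled points have an adjusted p under 0.05. Pfkfb3 lies below 0 in all 3 comparisons, Hk2 is the highest in acute hypoxia (1.33) and the lowest in chronic against acute hypoxia (-0.72), and Pfkl and Gpi1 are the highest in chronic hypoxia (1.28 and 1.17).

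Read over the members, acute hypoxia against standard oxygen gave 0 calls of 10 without a block (4 at an unadjusted p under 0.05), where 0.0273% of 10987 genes were called. With the code block 2 were called, Hk2 and Gpi1, both higher, where 0.71% of genes were called and 0.655% were higher. Blocked and rescaled, Gpi1 alone was called (0.491% of genes). Without the libraries of code Z 4 were called, Hk2, Gpi1 and Pfkl higher and Pfkfb3 lower, where 2.95% of genes were. Of the members, 5 were higher in 3 of 3 codes (Hk1, Hk2, Gpi1, Pfkl, Pfkp; 20.9% of all genes) and 2 lower (Pfkm, Pfkfb3; 16.9%). The groups did not overlap for 4 members that were higher (Hk2, Gpi1, Pfkl, Pfkp; 7.63% of all genes) and 1 that was lower (Pfkfb3; 4.85% of all genes).

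Chronic hypoxia against standard oxygen gave 1 call without a block, Pfkfb3 lower (7 members at an unadjusted p under 0.05), where 2.69% of 11067 genes were called and 0.596% were lower. With the code block 7 were called, Hk1, Hk2, Gpi1, Pfkl, Pfkp and Pfkfb4 higher and Pfkfb3 lower, where 18.4% of genes were called, 15.1% higher and 3.3% lower. Of the members, 5 had groups that did not overlap and were higher (Hk2, Gpi1, Pfkl, Pfkp, Pfkfb4), against 24.2% of all genes, and 1 was lower, against 5.39%. In 3 of 3 codes, 6 members were higher (the same 5 and Hk1; 46.9% of all genes) and 1 was lower (Pfkfb3; 12.6%). Without the libraries of code Z those 5 were called higher and Pfkfb3 lower, where 21.1% of genes were called. In this comparison the median of all genes tested was 0.16, and median-of-ratios rescaling moved it to -0.0018. Rescaling made the calls over all genes without a block 115 higher and 118 lower, against 232 higher and 66 lower as deposited. After rescaling the member values were 1.10 for Pfkl, 0.98 for Gpi1, 0.74 for Pfkp, 0.47 for Pfkfb4, 0.43 for Hk2, 0.20 for Hk1 and -1.14 for Pfkfb3, and when blocked too 5 members were called (Hk2, Gpi1, Pfkl and Pfkp higher, Pfkfb3 lower), where 11.4% of genes were.

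Chronic against acute hypoxia gave 0 calls without a block (3 at an unadjusted p under 0.05), where 0.695% of 11087 genes were called. With the code block 4 were called, Gpi1 and Pfkfb4 higher and Hk2 and Pfkfb3 lower, where 15.5% of genes were called, 12.1% higher and 3.42% lower. Blocked and rescaled, Hk2 and Pfkfb3 were called, where 9.8% of genes were, and without the libraries of code Z Gpi1, Hk2 and Pfkfb3 were, where 16.3% of genes were. In 3 of 3 codes 4 members were higher (43.5% of all genes) and 2 lower (12.9%). Groups that did not overlap were those of Pfkfb4 (higher, 22.3% of all genes) and of Hk2 and Pfkfb3 (lower, 5.5% of all genes). Over the 10 members the median difference was 0.29, 0.49 and 0.17 in the 3 comparisons, where all genes had 0.01, 0.16 and 0.14. The 3 comparisons share their groups of samples, so they are not independent of each other.

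By group mean the order of the levels was Gpi1, then Hk3, then Pfkl in every group, with Pfkm and Tigar at the bottom. In standard oxygen Hk1, Pfkp and Pfkfb3 (53.9, 52.6 and 49.1 TPM) lay within their spread of each other, as did Hk2 and Pfkfb4 (24.2 and 23.7 TPM). In acute hypoxia Pfkp, Hk1 and Hk2 (84.0, 75.7 and 65.0 TPM) did so, and in chronic hypoxia Pfkfb4 and Hk2 (38.0 and 37.4 TPM). In chronic hypoxia the ranges of Hk3 (159 to 248 TPM) and Pfkl (128 to 189 TPM) overlapped, with Pfkl above Hk3 in the library of code Z. Among all genes, Hk2 stood at rank 4082 (standard), 1807 (acute) and 3236 (chronic), while Pfkfb3 went from rank 2269 to 3056 to 4446.

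The rest of glycolysis was described from a list of 10 genes, of which 9 could be tested. In acute hypoxia all 9 had positive differences (median 0.44; 52.5% of all genes tested were positive), from 0.14 for Aldoc, an aldolase, to 0.94 for Ldha, which turns pyruvate into lactate, and 0 were called without a block and 3 with the code block, all higher, where 0.71% of all genes were called with that block. In chronic hypoxia all 9 were again positive (median 0.92), as were 72.0% of all genes tested, from 0.50 for Pkm, pyruvate kinase, to 1.44 for Tpi1, triose phosphate isomerase, and 3 were called without a block and 9 with the code block, all higher, where 2.69% and 18.4% of all genes were called. The members of upper glycolysis differed from this in holding a called gene that was lower, Pfkfb3, though no test of the difference between the lists was made. Pfkfb3 encodes a regulator, and the list for the rest of glycolysis holds pathway enzymes only. No hexokinase, isomerase or phosphofructokinase gene was called lower in chronic hypoxia against standard oxygen. In chronic against acute hypoxia the median was 0.52, from 0.19 for Pkm to 0.77 for Aldoc, with 0 calls without a block and 5 with it, where 70.7% of all genes were positive and 15.5% were called with the block.

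Kin of the members and opposing enzymes made a list of 9, of which 4 passed the filter and were tested: Adpgk, which phosphorylates glucose with ADP, G6pc3, a glucose-6-phosphatase, Pfkfb1 and Pfkfb2. None was called without a block in any comparison. With the code block Pfkfb1 was called higher in chronic hypoxia against standard oxygen (0.76; limma adjusted p = 0.0327) and against acute hypoxia (0.80; limma adjusted p = 0.0405), at the low levels of 2.12 ± 0.930 TPM (standard), 1.98 ± 0.430 TPM (acute) and 4.27 ± 1.34 TPM (chronic; SD, n = 3). With that block 18.4% of all genes were called in chronic hypoxia against standard oxygen (15.1% higher). Against acute hypoxia 15.5% were called (12.1% higher). The list medians were -0.01, 0.20 and 0.27 in the 3 comparisons, where all genes had 0.01, 0.16 and 0.14. In acute hypoxia its values ran from -0.17 for Adpgk to 0.25 for Pfkfb2, and Pfkfb2 was the lowest in the other 2 comparisons (0.16 and -0.09).

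Among the genes most like Hk2 in pattern, by Pearson's r of log2(TPM + 1) over the 9 libraries after subtraction of the mean of each code, among 7106 genes with a mean of at least 10 TPM, were Fam126a (r = 0.972) and Fam102b (0.971). Fam126a had means of 8.74, 14.2 and 11.9 TPM in standard, acute and chronic conditions. Those most like Pfkfb3 were Fabp4 (0.997), Slco4a1 (0.988) and Ralgds (0.985), and Fabp4, a fatty acid binding protein of macrophages and fat cells, went from 291 to 188 to 92.0 TPM. Those most like Pfkfb4 were Mindy3 (0.997), Tmem243 (0.995) and Galnt1 (0.990). These are descriptions over the same 9 libraries, whose codes and oxygen groups the genes share.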

How the data were processed

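Libraries of mRNA from 9 samples (3 groups of 3) were sequenced as 75-base paired ends per the labels' protocols. The authors deposited 3 tables of TPM, 1 per pair of groups, and the 9 columns that recur in a second table are identical there. The submitters' processing notes name FastQC, STAR, featureCounts and GRCm38, with no role or version. How TPM was computed is not given in the sources used here, and depth is unknown. Symbols were matched for 34582 of 34866 genes. Coordinates and overlaps are from GENCODE M21 (GRCm38) and promoters from RefSeq (GRCm38.p6).

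Each comparison was fitted with limma 3.58.1 (R 4.3.3; eBayes with a trend, two-sided) on log2(TPM + 1) over its 6 samples, for genes with a mean of at least 1 TPM, with Benjamini-Hochberg adjustment over all genes tested and a threshold of 0.05. A pseudocount of 1 understates the change of low genes. The script was tested on simulated data for acute hypoxia against standard oxygen, unblocked. It called 50.5% of genes given a log2 change of 1 and 86.5% of those given 2, with 5 false calls. The simulated noise was independent for each gene and library, without the deviations that libraries of a code share. These rates may therefore not hold for the real libraries, and the blocked fit was not tested in this way. Ratios and shares were tested by exact permutation that ignored the code, except where a test within codes is named.

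The code as a block was tried because all same-code correlations of deviations were above 0.1 (means 0.435, 0.445 and 0.536 for acute against standard, chronic against standard and chronic against acute), while title numbers gave -0.118 and -0.133 against standard oxygen. The pairing is thus a hint from the data, not a stated design.

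All members, the highest and lowest gene of each list and the 3 genes most like Hk2, Pfkfb3 and Pfkfb4 are named, except for an item that is not reported here. The members and lists were chosen with earlier results of these data known. Alternatives were another pseudocount or filter, rescaling, no trend, all 9 samples, both blocks, and left-out libraries.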

Additional observations from a re-analysis of the deposited data

How the results depend on the processing

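The number of members called moved as follows. In acute hypoxia against standard oxygen it was 0, and it became 2 with the code as replicate block, 1 with that block and rescaling, 4 with that block and all 9 samples, 4 without the libraries of code Z, and 0 to 1 when a replicate was left out. In chronic hypoxia against standard oxygen it was 1, and it became 3 with all 9 samples in 1 fit, 0 with the title number as block (Pfkfb3 at a limma adjusted p of 0.136), 7 with the code block, 5 with that block and rescaling, 7 with that block and all 9 samples, 6 without code Z, and 0 to 3 when a replicate was left out. In chronic against acute hypoxia it was 0, and it became 1 with rescaling, 1 with all 9 samples, 4 with either block, 2 with the code block and rescaling, 4 with the code block and all 9 samples, and 3 without code Z. Title number and code pair the same libraries in that comparison, so the title block and the code block are the same fit there. Other pseudocounts and filters and the fit without a trend left these 3 counts as they were.

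Signs changed for members near 0. Rescaling gave -0.00098 for Tigar in acute hypoxia, -0.17 for Hk3 and -0.076 for Pfkm in chronic against standard, and -0.0075 for Hk3 in chronic against acute, with or without the code block. Without code Z, Tigar was -0.0084 in acute hypoxia and Hk1 0.030 in chronic against acute. Leaving out a replicate gave -0.28 to 0.043 (Pfkm) and -0.12 to 0.17 (Tigar) in acute hypoxia, -0.18 to 0.20 (Hk3), -0.051 to 0.26 (Pfkm) and -0.38 to 0.095 (Tigar) in chronic against standard, and -0.24 to 0.15 (Hk1) and -0.40 to 0.076 (Tigar) in chronic against acute. The Pfkp share difference between chronic and acute hypoxia ranged from -0.839 to 3.85 points when a replicate was left out, and the same difference also changed sign for the shares of Hk1 (-3.56 to 1.55), Pfkl (-3.98 to 0.649) and Pfkm (-0.553 to 0.623). The cause was not tested. TPM keeps no depth, so no counting error can be given.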

Other observations

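Genes that bring glucose in or lead hexose phosphates away formed a list of 9, of which 7 passed the filter. Slc2a1, the glucose transporter GLUT1, was higher in acute hypoxia by 1.88 on the log2(TPM + 1) scale (limma adjusted p = 0.125 unblocked, 0.0299 blocked) and in chronic hypoxia by 1.51 (limma adjusted p = 0.00770 without a block). Pgm1, a phosphoglucomutase that links glucose 6-phosphate to glycogen, had levels of 45.3 ± 5.04 TPM (standard), 94.7 ± 9.66 TPM (acute) and 84.9 ± 1.15 TPM (chronic; SD, n = 3). Its differences from standard oxygen were 1.05 in acute hypoxia (limma adjusted p = 0.0568 unblocked, 0.0120 blocked) and 0.90 in chronic hypoxia (limma adjusted p = 0.0193 without a block). These 2 were the only genes of the list called in either comparison with standard oxygen, and none was called in chronic against acute hypoxia. Of all genes tested, 0.0273% were called unblocked and 0.71% blocked in acute hypoxia, and 2.69% and 18.4% in chronic hypoxia. In chronic against acute hypoxia these shares were 0.695% and 15.5%. The list medians were 0.12, -0.07 and -0.15 in the 3 comparisons, where all genes had 0.01, 0.16 and 0.14. The lowest values were those of Gnpda1 in acute hypoxia (-0.16) and of Gfpt1 in chronic hypoxia (-0.17 against standard and -0.40 against acute).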
